A study of Equus caballus with 12 samples.

Results

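ATP citrate lyase (ACLY) was followed through the 12 sequenced pools of in vitro matured horse oocytes. It is 1 of the 11425 genes in the deposited table, listed under the Ensembl identifier ENSECAG00000009702, and it was chosen by its own normalized counts in the 3 groups, so its levels and differences are described here without any test. RNA was measured in 4 VIM, 3 VMAT and 5 FR libraries, each from a pool of about 23 oocytes. VIM oocytes (VGV in the sample labels) were vitrified while immature with their corona radiata cells, warmed and then matured in vitro. VMAT oocytes were matured in vitro first, freed of cumulus cells, and vitrified and warmed at metaphase II, whereas FR oocytes were matured in the same way and never vitrified. VIM and FR oocytes were likewise freed of cumulus cells after maturation, before they were frozen. All 3 groups came from slaughterhouse ovaries, were exposed to follicle-stimulating and luteinizing hormone during maturation, and were frozen after a polar body had been seen. Since every library is a pool, single oocytes cannot be followed, and nothing says which animals contributed to which pool. The p-values given for other genes therefore measure only the spread between these pools.

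ACLY is a cytosolic enzyme. It uses ATP and coenzyme A to split citrate that has left the mitochondria into oxaloacetate and acetyl-CoA. This acetyl-CoA is the building block of new fatty acids and of cholesterol, and it is also the acetyl donor for histones. Fully grown oocytes make little new RNA and live on stored messages, and lipid is abundant in the oocytes of domestic mammals.

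Counts on genes, called reads here, totalled 1636620 to 12166950 per library. The lowest and the highest total were both in VMAT (replicates 1 and 2), and 5470 to 9504 genes were detected per library. These counts were made after unique molecular identifiers had been processed, and are fewer than the sequenced reads that the paper reports. The authors divided the counts of each library by its DESeq2 size factor, and these normalized counts are the levels given below unless reads are named. After normalization, 3 reads were worth 9.34 in VMAT replicate 1 but 0.376 in VMAT replicate 2. Of 22 oocyte marker genes, 15 could be matched to the table, and their summed normalized count was 15279 to 23214 in VIM, 15197 to 33038 in VMAT and 18708 to 23356 in FR. Abundant genes weigh most in this sum, such as DPPA3 (FR mean 7392) and BTG4 (FR mean 6649). More than 30 reads in every library of the group were found for 7 of the 15 in VIM, 9 in VMAT and 10 in FR. Of 21 cumulus and granulosa markers, only HAS2, the hyaluronan synthase of cumulus cells, could be matched. Its normalized count was above 0 in every library, at 641 to 2144 in VIM, 254 to 1755 in VMAT and 462 to 1239 in FR, and its part in the levels of ACLY was not tested.

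ACLY was abundant in oocytes vitrified after maturation and close to the limit of detection in the others. In VMAT, the recovered reads of ACLY were 848 in replicate 1, 880 in replicate 2 and 914 in replicate 3. In FR, replicates 1, 2 and 3 held 1 read each, replicate 4 held 28 and replicate 5 held 4. In VIM, replicate 3 held 3 reads and the other 3 replicates held 0. All VMAT libraries were therefore above all FR and VIM libraries, while VIM and FR overlapped.

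As normalized counts, the VMAT libraries were at 2639, 110.2 and 1078 (replicates 1 to 3), with exact Poisson 95% intervals of 2464 to 2823, 103 to 118 and 1009 to 1150. Such intervals cover counting error only. VMAT replicate 2 was the lowest of the group on this scale, although its reads were close to those of the other VMAT libraries. The FR libraries were at 1.08, 1.14, 0.56, 14.1 and 2.86 in the order of their replicate numbers. FR replicate 4 stood apart, with an interval of 9.39 to 20.4, above the intervals of the other FR libraries. In VIM, replicate 3 was at 3.62 (interval 0.745 to 10.6). The 3 VIM libraries at 0 allowed normalized counts of up to 1.84, 4.89 and 2.93 in replicates 1, 2 and 4, when 3 reads are taken as the limit that a count of 0 allows. Since these are pools of whole oocytes, fewer oocytes with the message and less of it per oocyte cannot be told apart.

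**Figure D1:**
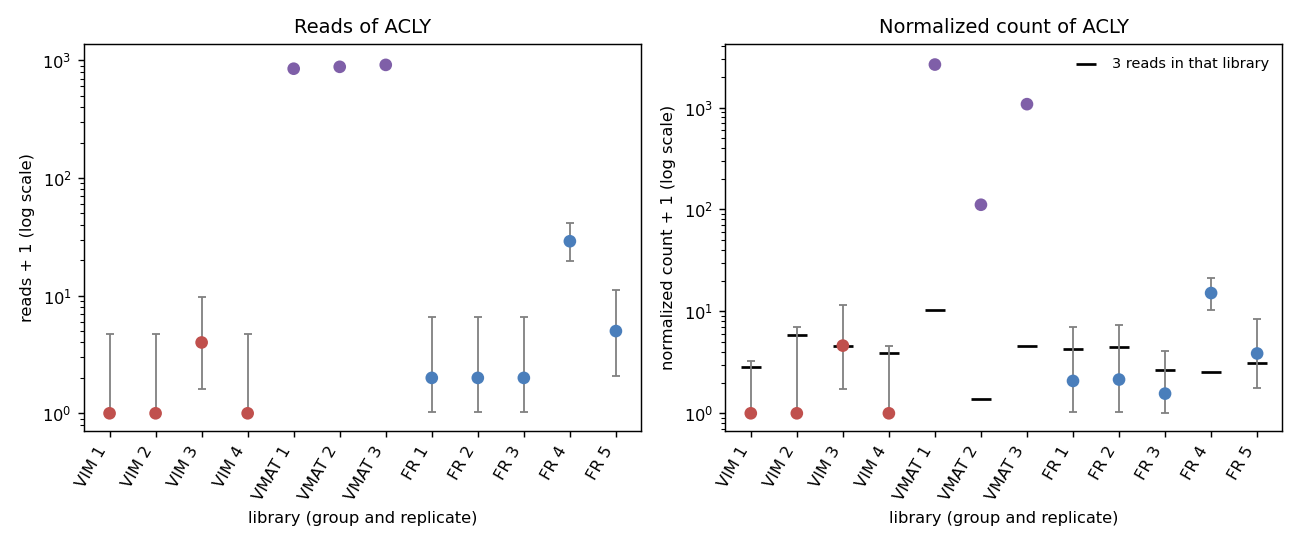
Reads (left) and normalized counts (right) of ACLY in each of the 12 libraries, each plus 1 on a log axis; points are libraries coloured by group, grey bars are exact Poisson 95% intervals (counting error only) and black dashes on the right mark 3 reads in that library. The VMAT libraries lie at 848 to 914 reads, against 0 to 28 reads in every other library.

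Over the replicates of VMAT, ACLY averaged 1276 ± 1276 normalized counts (SD, n = 3). The FR mean was 3.95 ± 5.75 (SD, n = 5), and that of VIM 0.904 ± 1.81 (SD, n = 4). The order of the levels was thus VMAT, FR and VIM. FR and VIM are neighbours in this order and did not differ beyond their spread, since the VIM range of 0 to 3.62 lay over the FR range of 0.56 to 14.1. Medians were 1078 in VMAT, 1.14 in FR and 0 in VIM.

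Ranked against the other genes of the same library, ACLY also changed place. In the VMAT libraries, 91.8%, 72.8% and 90.0% of the genes with at least 1 read had fewer reads than ACLY (replicates 1 to 3). In FR replicate 4, 46.0% of the detected genes had fewer reads, and in FR replicate 5 and VIM replicate 3 it was 33.4% and 31.5%. The share was 0.0% in FR replicates 1, 2 and 3, and ACLY was not detected in VIM replicates 1, 2 and 4. Scaled to 1000000 reads on genes per library, ACLY was at 518, 72.3 and 373 in VMAT, at 0.353, 0.365, 0.231, 5.94 and 1.12 in FR and at 0, 0, 1.19 and 0 in VIM. On this scale too, the VMAT libraries were above all others, and VIM replicate 3 was above 4 of the 5 FR libraries. VMAT replicate 2, the deepest library, was again the lowest of VMAT.

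The equal reads of ACLY in VMAT arose at very unequal depths. The highest VMAT read number was 1.08 times the lowest, whereas the size factors differed 24.8-fold and the normalized counts 23.9-fold. Total reads spread less than the size factors. They were 1636620 in VMAT replicate 1 (size factor 0.321) and 12166950 in VMAT replicate 2 (size factor 7.99). The spread in normalized counts thus reflects the size factors and not depth alone. Among the 1366 genes with more than 30 reads in every VMAT library, the median ratio of the highest to the lowest read number was 8.30, and 2 genes, ACLY included, were at or below the ratio of ACLY. For the same 1366 genes, the median ratio between normalized counts was 5.58. The ratio of ACLY was thus below the median of these genes in reads and above it in normalized counts, and VMAT replicate 1 carried most of its mean.

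The comparison of VMAT vs. FR asks what vitrification does to a mature oocyte. ACLY had a log2 difference of 7.68 (standard error 2.33, limma fit over 8305 genes), and 1 gene of those tested, ENSECAG00000009451, was further up at 8.72. This rank of 2 became 23 without VMAT replicate 1 and 14 without VMAT replicate 3, and it was 140 with edgeR and 119 with DESeq2 on the recovered reads. The ratio of the mean normalized counts was 323. It was 150 without VMAT replicate 1, which carries the highest value, and 904 without FR replicate 4. With the reads of each group added up (2642 in VMAT and 35 in FR) and corrected for size factors, the ratio was 57.5 (exact conditional 95% interval 41.2 to 82.7, counting error only), 299.9 without VMAT replicate 2 and 206 without FR replicate 4. Every one of these ratios put VMAT above FR, but the size of the difference depended on which libraries were counted and how they were weighted. Every VMAT library was above every FR library for 1.96% of the genes tested, ACLY among them. The gene was chosen by these values, so nothing is read from it.

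For VIM vs. VMAT, which contrasts vitrification before and after maturation, the log2 difference of ACLY was -8.86 (standard error 2.81). In the limma fit no other gene of the 7627 tested had a larger difference in size, whereas ACLY was rank 2 among genes higher in VMAT with a pseudocount of 10, rank 11 with edgeR and rank 18 with DESeq2 on the recovered reads. The 4 VIM libraries held 3 reads in all, and with size factors taken into account the ratio of VMAT over VIM was 394, with a counting interval of 135 to 1912. Without VMAT replicate 2 it was 2057, with an interval of 703 to 9982. No overlap with VIM below VMAT, as seen for ACLY, was found for 2.78% of the genes tested.

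Vitrification of the immature oocyte is the contrast of VIM vs. FR, in which ACLY had a log2 difference of -1.18 (standard error 1.01), and 3547 of 7351 genes had a larger one in size. Without FR replicate 4 it was -0.64. The ratio of FR over VIM on size-corrected reads (35 and 3 reads) was 6.86, with a counting interval of 2.16 to 34.9, and without FR replicate 4 (7 and 3 reads) it was 1.92, with an interval of 0.438 to 11.5. The difference between these groups thus rested on 1 FR library, and at 0 to 4 reads in the other 8 libraries it was not detectable at this depth. The comparisons share libraries, since FR served as control for both vitrified groups and VMAT entered 2 of the contrasts.

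**Figure D2:**
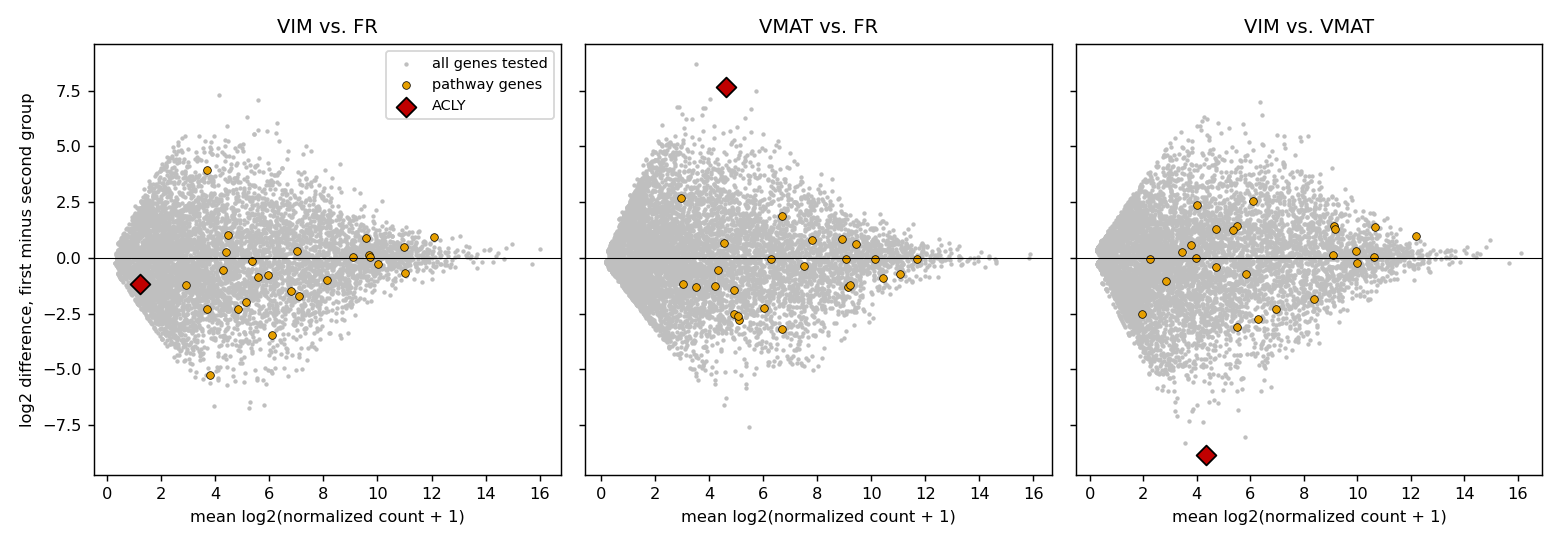
Log2 difference between groups (vertical axis, first minus second group) against the mean log2(normalized count + 1) over the libraries compared (horizontal axis), for every gene tested in each comparison; grey points are all genes, orange points the 25 pathway genes and the red diamond ACLY. ACLY sits at -1.18 on the panel of VIM vs. FR, at 7.68 on that of VMAT vs. FR and at -8.86 on that of VIM vs. VMAT.

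The spread of ACLY around the group means joins the wide VMAT values with FR and VIM values near 0. In VMAT vs. FR its residual SD was 1.73 on the log2 scale, against a median of 2.52 over all genes, and 26.1% of genes had a smaller one. For VIM vs. VMAT the residual SD was 1.72 (median 2.51, 27.1% smaller) and for VIM vs. FR it was 1.23 (median 2.59, 16.3% smaller). Many genes were seen in some pools and hardly in others, and 64.7% of the genes in the table had more than 30 reads in at least 1 library and 3 reads or fewer in another.

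Genes with a pattern like that of ACLY were ranked by the mean absolute difference of log2 values over the 12 libraries, after each gene's own mean had been subtracted. The median of this distance over 9027 genes was 3.43 log2 units. The nearest gene was REEP3, which encodes a protein that shapes the endoplasmic reticulum, at a distance of 0.941. Its reads were 1036, 5070 and 1006 in VMAT, 2 to 5 in VIM and 4, 2, 3, 270 and 4 in FR. Like ACLY, it was high in all VMAT libraries and had its highest FR value in replicate 4, at a normalized count of 136 against 1.68 to 4.31 in the other FR libraries. Of the named genes, the dual specificity phosphatase DUSP12 came next, at a distance of 1.25. DUSP12 had 603, 279 and 608 reads in VMAT, 1 to 6 in FR and 30, 3, 1 and 0 in VIM.

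Further named genes were the formin DIAPH2 (1.69), the phosphatase ILKAP (1.70), CCDC191 (1.72) and the endosomal GTPase RAB5C (1.86), and these were less close. With unnamed genes counted, their ranks were 18, 19, 25 and 49. Each of them had at least 1 library outside VMAT with more than 30 reads. DIAPH2 had 88 reads in VIM replicate 3, ILKAP 668 in FR replicate 3, CCDC191 505 in VIM replicate 1 and RAB5C 322 in FR replicate 4. The nearest genes without a name in the sources used here were ENSECAG00000023213 (1.24) and ENSECAG00000011325 (1.44). Only 3 genes of the table had more than 30 reads in every VMAT library and at most 30 in every other library, a limit chosen with the values known. They were ACLY, DUSP12 and ENSECAG00000023213, the last with 70, 201 and 384 reads in VMAT and 0 or 1 in the other libraries. All VMAT libraries were above all other libraries for 40 genes, or 0.350% of the table. The distances are descriptions over libraries that differ in depth, and the genes were selected for them.

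**Figure D3:**
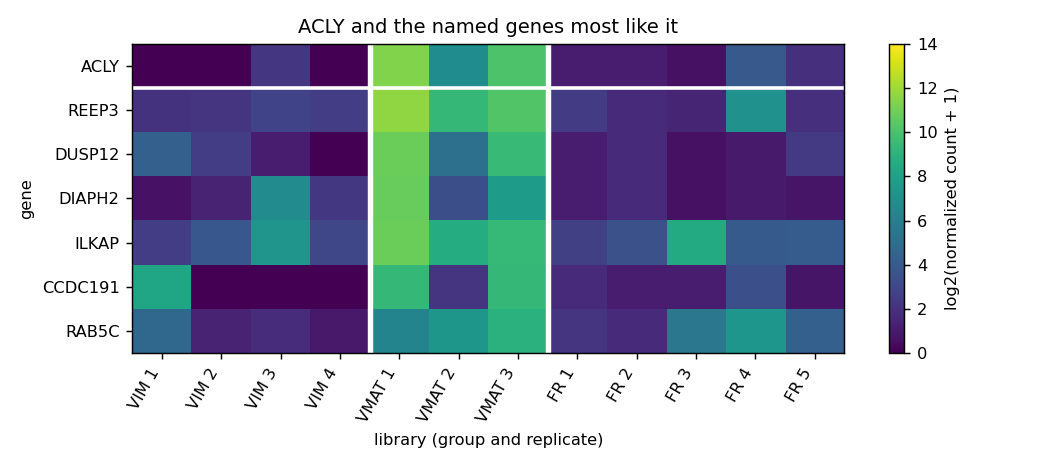
Levels of ACLY and of the 6 named genes most like it, as log2(normalized count + 1) by colour, with genes in rows and the 12 libraries in columns, separated by group; colours are to be compared along a row. REEP3 is high in the VMAT libraries (1006 to 5070 reads) and in FR replicate 4 (270 reads), the FR library in which ACLY is also highest (28 reads).

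Genes that act around ACLY were taken from 8 lists of 135 genes for citrate and acetyl-CoA supply, fatty acid synthesis, sterol synthesis, regulators, histone acetyltransferases, fatty acid oxidation, lipid droplets and relatives of ACLY by sequence. A name in the sources used here could be paired with the identifiers of 25 of them, which were all tested, and the other genes were not analysed here. These sources are result files of the same group comparisons, so the 25 are not a neutral sample of the lists. With limma, 0 of the 25 genes passed an adjusted p of 0.05 with an absolute log2 fold change of 1 in any comparison, and 0 of all genes did, so percent called was 0 in each. At an unadjusted p under 0.05, limma placed 1 of the 25 genes higher and 1 lower in VIM than in FR, as it did 2.12% and 1.66% of all genes. Between VMAT and FR it placed 0 of the 25 at that p (2.41% of all genes higher and 1.22% lower), and likewise 0 between VIM and VMAT (0.97% higher and 2.01% lower). On the recovered reads, DESeq2 called 2 of the 25 in VIM vs. FR, where it called 6.87% of all genes, and 0 in the other comparisons, where it called 4.26% (VMAT vs. FR) and 3.87% (VIM vs. VMAT). The edgeR test called 0 of the 25 throughout, with 0.012% of all genes called between VMAT and FR, 0.0131% between VIM and VMAT and 0 between VIM and FR. In VIM vs. FR the 25 genes had a median log2 difference of -0.57, against -0.12 over all genes tested. The median was -0.73 for VMAT vs. FR (0.01 over all genes) and 0.12 for VIM vs. VMAT (-0.08 over all genes). None of the 25 had VIM and FR values without overlap, which 0.952% of all genes had with VIM above and 0.639% with VIM below, nor did any between VIM and VMAT (1.72% with VIM above and 2.78% with VIM below).

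The step before ACLY is the making of citrate. CS, the citrate synthase of the mitochondria, had reads of 1, 290 and 6 in VMAT, 2 to 12 in VIM and 253, 131, 10, 6 and 14 in FR. None of the VMAT values but that of replicate 2 was above 30 reads, unlike ACLY. The 4 genes of citrate and acetyl-CoA supply (CS, PDHA1 and DLD of pyruvate oxidation, and the cytosolic malate dehydrogenase MDH1) had a median log2 difference of -1.58 for VIM vs. FR and -0.92 for VMAT vs. FR, and 0 of 4 had an unadjusted p under 0.05 in either. MDH1, which reduces the oxaloacetate that ACLY releases, was at 11, 1635 and 1443 reads in VMAT and at 4 to 719 in FR, with overlapping groups. SUCLA2, a subunit of the succinyl-CoA ligase that is related to ACLY by sequence, had 1, 500 and 0 reads in VMAT.

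Downstream of ACLY, acetyl-CoA enters fatty acid synthesis. Of the genes listed for it, ACACA and FASN could not be paired with an identifier, so neither was followed. ACACB, the acetyl-CoA carboxylase at the mitochondria, had 91, 417 and 0 reads in VMAT, 7 to 638 in FR and 10 to 400 in VIM, so the groups overlapped. Its log2 difference in VMAT vs. FR was -2.25 (standard error 2.10, limma adjusted p = 0.952), and 0.06 without VMAT replicate 3, where ACACB was at 0. HSD17B12, a reductase of fatty acid elongation, was the pathway gene with the smallest p in VIM vs. FR. It was at 3, 0, 0 and 3 reads in VIM and at 23, 625, 2434, 2 and 47 in FR, so the groups overlapped through FR replicate 4. Its log2 difference was -5.27 (standard error 2.35, limma adjusted p = 0.902), and its adjusted p in DESeq2 on the recovered reads was 0.000198. In VMAT it had 2, 553 and 1 reads. ACSL3, which activates long-chain fatty acids, had 848 reads or more in every library. The only sterol gene that could be paired, SC5D, had 2, 31 and 2 reads in VMAT.

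**Figure D4:**
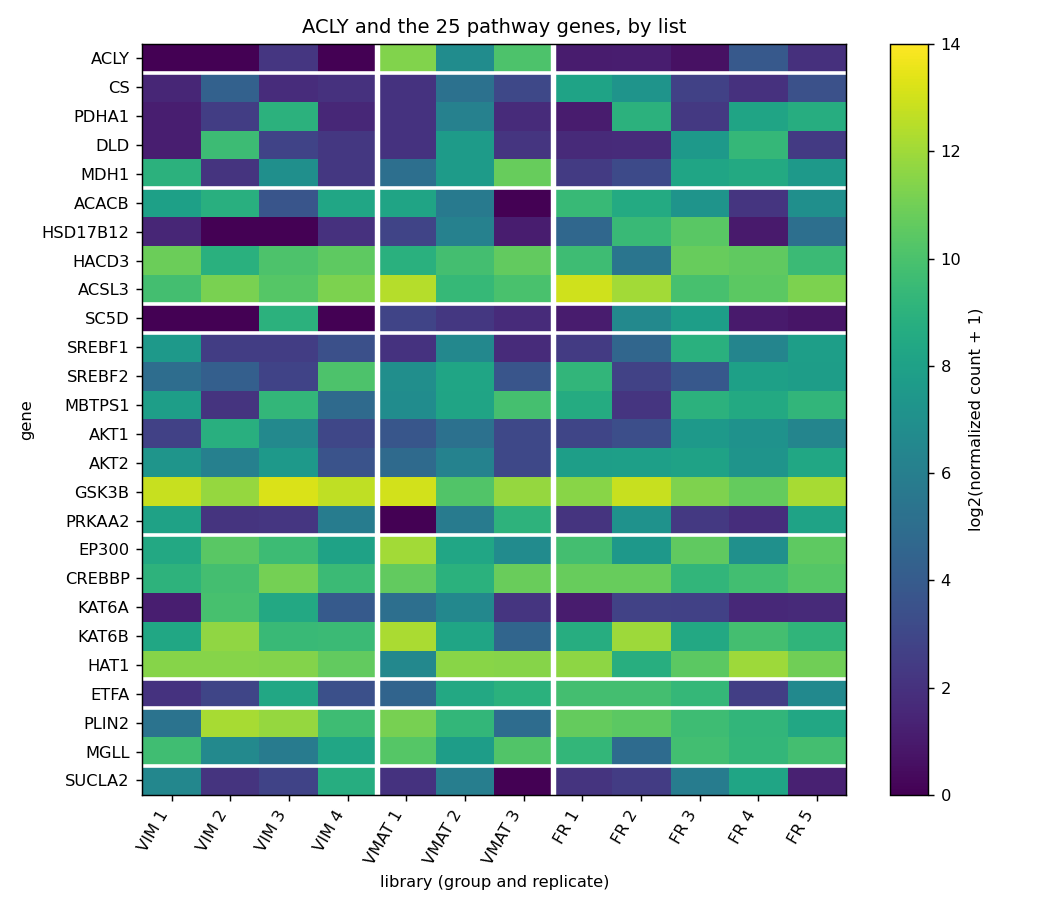
Levels of ACLY and of the 25 pathway genes as log2(normalized count + 1) by colour, with genes in rows, ordered by list, and the 12 libraries in columns, separated by group; colours are to be compared along a row. No pathway gene shows the contrast between VMAT and the other libraries seen in the top row for ACLY.

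Several regulators of ACLY were measured. The kinase AKT2, of a family that phosphorylates ACLY, was at normalized counts of 28.0, 73.1 and 7.08 in VMAT and at 149 to 326 in FR. All VMAT libraries were below all FR libraries, which was seen for 1.23% of the genes tested and for 1 of the 25 pathway genes. Its log2 difference was -3.18 (standard error 1.69, limma adjusted p = 0.95). GSK3B, a kinase that also acts on ACLY, had 2185 to 11733 reads in VIM, 2674 to 9258 in VMAT and 2665 to 6540 in FR. Its log2 difference was 0.92 in VIM vs. FR (standard error 0.438, limma adjusted p = 0.902). SREBF1, a transcription factor of lipid synthesis genes, had 1, 738 and 2 reads in VMAT and a log2 difference of -2.59 in VMAT vs. FR (standard error 2.28, limma adjusted p = 0.95). Its relative SREBF2 had 38, 2411 and 10 reads in VMAT and 5 to 540 in FR.

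Histone acetyltransferases use acetyl-CoA, and 5 could be followed. EP300 and CREBBP, both broad acetyltransferases, had more than 30 reads in every library, and their groups overlapped in all comparisons. KAT6A had 2, 603, 294 and 15 reads in VIM and 1 to 10 in FR, with a log2 difference of 3.93 (standard error 2.30, limma adjusted p = 0.902, DESeq2 adjusted p = 0.00111 on the recovered reads). HAT1, which acetylates new histones, had the smallest p in VIM vs. VMAT. Its log2 difference of 1.39 (standard error 0.959, limma adjusted p = 0.967) was -0.25 without VMAT replicate 1, where HAT1 had 30 reads against 2411 and 23559 in the other VMAT libraries. In the same comparison, the pathway genes next by p were GSK3B, HSD17B12, ETFA (the electron carrier of fatty acid oxidation) and MDH1, with log2 differences of 0.96, -2.50, -3.10 and -2.76 and a limma adjusted p of 0.967 each. The droplet coat gene PLIN2 had 719, 4951 and 25 reads in VMAT, within the range of the other groups on the normalized scale for replicates 1 and 2 and below it for replicate 3.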

How the data were processed

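The authors trimmed the reads of a 3′ transcriptome library with Trim Galore 0.6.7, used STAR 2.7.10b for mapping to the horse genome EquCab 3.0 with the annotation of Ensembl release 108, processed unique molecular identifiers with UMI-tools 1.1.2, counted with RSEM 1.3.1 and removed 1 VMAT sample. The deposited values are a signal per gene and library, the count divided by a DESeq2 size factor. Within each library 100.0% of the values were whole multiples of the smallest value (tolerance 0.01), so whole counts, called reads here, were recovered. These served for reads, intervals, edgeR 4.0.16 and DESeq2 1.42.0.

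Each comparison used only its own libraries and genes above 0 in at least 4 (VIM vs. FR) or 3 libraries. The test was limma 3.58.1 in R 4.3.3 on log2(value + 1), with Benjamini-Hochberg adjustment over all genes. It was tested on simulated data. Alternatives were pseudocounts of 0.5 and 10, no filter or a minimum of 10, equal totals, quantile normalization, all 12 libraries in 1 fit, no trend, a replicate block, both count tools and leaving out each library. ACLY and the lists were chosen with earlier results of these data known. Named genes were the fixed partners of ACLY, the 5 pathway genes with the smallest p per comparison and the 6 named genes most like ACLY. Other pathway genes, neighbours and unnamed identifiers were added after their values were seen. Names came from the study's supplementary files, in a shortened form, which paired 2567 identifiers with a name. These files list the differentially expressed genes and the gene ontology terms of the same group comparisons. The named genes are therefore not a neutral sample of the table. The lowest chi-square per degree of freedom between libraries of a group was 277, so none of these pairs looked like 1 library deposited again. The order of neighbouring genes came from RefSeq (TB-T2T). Gene coordinates served only to set that order, and sequences were not used here. Python 3.11.15, numpy 2.4.6, pandas 2.3.3, scipy 1.17.1 and matplotlib 3.10.9 were used.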

Additional observations from a re-analysis of the deposited data

Results flagged for a closer look

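Single libraries lying far from the rest of their group were noted in the VIM and FR values of 20 named genes, where the gap to the nearest library exceeded 0.829 (VIM) or 0.71 (FR) of the range, the limits of Dixon's 95% criterion. This held for 16 of 40 sets of values. The criterion would mark about 2 of 40 sets of normally distributed values. Normalized counts need not be so distributed, and the share marked over all genes was not computed, so 16 is not read as an excess. ACLY and the 6 named genes most like it were also chosen by these values, so the notes are a description and no test. For ACLY these were VIM replicate 3, at a normalized count of 3.62 (3 reads) where the other VIM libraries were at 0, and FR replicate 4, at 14.1 (28 reads) against 0.56 to 2.86. The first of these follows from 3 libraries at 0.

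FR replicate 4 also stood apart for REEP3 (136), RAB5C (162), CCDC191 (9.59) and SUCLA2 (303). FR replicate 3 was at 374 for ILKAP against 5.39 to 15.8 in the other FR libraries. In VIM, replicate 1 stood apart for CCDC191 (310.0), RAB5C (24.6) and SREBF1 (193), replicate 2 for CS (19.6), and replicate 3 for DIAPH2 (106), ILKAP (156) and ETFA (330.2). VIM replicate 4 was high for SREBF2 (1069) and low for HAT1 (1610, against 2756 to 2800).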

How the results depend on the processing

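The log2 difference of ACLY kept its direction under all alternatives in which it was kept. With the pseudocount of 10 it was -6.02 in VIM vs. VMAT and 5.73 for VMAT vs. FR, a move of more than 1 residual SD that follows from the larger pseudocount. Leaving out each library in turn gave 6.70 to 8.99 for VMAT vs. FR, -10.17 to -7.88 for VIM vs. VMAT and -1.73 to -0.64 for VIM vs. FR. In the last of these the other alternatives gave -2.26 to -0.29, and with only genes of a normalized count of at least 10 kept, ACLY was not tested there. Its rank by log2 difference in VMAT vs. FR was 2 or 3 under the limma alternatives with all libraries, 2 to 23 when 1 library was left out, 140 with edgeR and 119 with DESeq2, and the cause was not tested. Pathway genes called in VIM vs. FR were 2 with DESeq2 (HSD17B12 at -8.42 and KAT6A at 6.69) and 0 otherwise. ACACB in VMAT vs. FR lay between -4.01 and 0.0614 and HAT1 in VIM vs. VMAT between -0.25 and 2.23 when 1 library was left out, and these 2 turned direction. Of the 6 named genes most like ACLY, 4 to 6 stayed among the 6 nearest named genes. Libraries with the same replicate number showed no sign of pairing (correlations of deviations -0.03 to 0.01), but a shared batch was not tested. According to the paper, FR and VMAT oocytes were matured together and assigned to their groups afterwards. With the replicate block, ACLY was at 8.48 for VMAT vs. FR, -8.68 for VIM vs. VMAT and -1.13 for VIM vs. FR, and 0 pathway genes were called. Over all genes, DESeq2 called 505 for VIM vs. FR, 354 between VMAT and FR and 295 between VIM and VMAT, and edgeR called 0, 1 and 1. For VIM vs. FR, limma called 3 genes with no filter and 3 without a mean-variance trend.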

Other observations

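In the RefSeq gene order of the horse, 3 of the 20 protein-coding genes nearest to ACLY (10 on each side) had a name paired with an identifier. CNP, 2 genes away, had 63, 330 and 19 reads in VMAT, 27, 0, 581 and 19 in VIM and 2 to 431 in FR, so it did not share the pattern of ACLY. EIF1, a translation initiation factor 9 genes away on the other side, had 50, 13799 and 1552 reads in VMAT and 1480 to 3209 in VIM. RAB5C, 9 genes away on the same side as CNP, is also among the 6 named genes most like ACLY. With unnamed genes counted, RAB5C was at rank 49. It had 25, 1370 and 424 reads in VMAT, and its VMAT range of 77.8 to 500 in normalized counts overlapped the FR range of 2.29 to 162.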
